A study of Mus musculus with 2 samples.

Results

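The islet hormone genes are described here as a set of 9 genes, Ins1, Ins2, Gcg, Sst, Ppy, Pyy, Iapp, Ghrl and Ttr, out of the 32285 genes of the deposited count matrices. They were chosen by gene symbol, with earlier results of these data known and no threshold on their levels, and were counted in every barcode that had at least 500 genes, at least 1000 UMIs (unique molecular identifiers, that is, counted transcript molecules) and at most 20% mitochondrial UMIs. All 9 symbols had a row in both matrices. Single-cell RNA-sequencing had been run on pancreatic tumours of mice at 6 weeks of age, with 1 library for each of 2 groups. EL1 mice (EL1-Luc/EL1-TAg, an FVB/N line) carry SV40 large T antigen and firefly luciferase, each under the elastase I promoter, which is active in acinar cells, the exocrine cells that make digestive enzymes. WTg mice come from a cross of EL1 with mice that carry a Mettl3 open reading frame under the CAG promoter, which is active in most tissues, so they carry these transgenes as well as Mettl3. Mettl3 had been injected into BL/6 eggs, so strain background and transgene cannot be told apart. Tumours were digested with collagenase D and DNase I, red cells were lysed, and cells were stained with 7AAD and sorted. How many mice gave a library, and of which sex, is not stated, and with 1 library per group no difference between the groups was tested.

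In the normal pancreas these hormones come from the islets of Langerhans, small endocrine clusters among the acinar tissue. Beta cells make insulin and amylin, alpha cells glucagon, delta cells somatostatin, PP cells pancreatic polypeptide and epsilon cells ghrelin. Each is made as a prohormone, which convertases in secretory granules cut to its active form. Peptide YY is a relative of pancreatic polypeptide made mainly by gut endocrine cells and by some islet cells. Transthyretin, encoded by Ttr, is a plasma carrier of thyroxine and of retinol-binding protein. It is not itself a hormone, is made mainly by liver and choroid plexus, and is also expressed in islet endocrine cells. The study gave more than a single cell cluster a name that joins beta and duct cells. Among them were a cluster it took as cancer and another it took as normal duct. The hormone genes in the same matrices show which islet transcripts were counted.

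To show what lies upstream of the genes, the 250 bases before the start site were read from the RefSeq promoter table (GRCm38.p6), which had a window for 7 of the 9 genes. Ins2 and Ttr had none. The windows of Ins1 and Gcg, which were at or near 0 here, are given beside those of Ppy and Ghrl, which were detected. Capitals mark CANNTG (the E-box core, bound by basic helix-loop-helix factors such as Neurod1), TAAT (the core of homeodomain sites, bound by factors such as Pdx1) and TGACGTCA (the cyclic AMP response element) on either strand, and no 2 of these motifs overlapped in the 4 windows. All are read 5′ to 3′ on the gene's strand. They lie at chr19:52264047-52264296 on the plus strand (Ins1), and on the minus strand at chr2:62483654-62483903 (Gcg), chr11:102101320-102101569 (Ppy) and chr6:113719912-113720161 (Ghrl, the window nearest to the annotated gene start among 4).
Ins1: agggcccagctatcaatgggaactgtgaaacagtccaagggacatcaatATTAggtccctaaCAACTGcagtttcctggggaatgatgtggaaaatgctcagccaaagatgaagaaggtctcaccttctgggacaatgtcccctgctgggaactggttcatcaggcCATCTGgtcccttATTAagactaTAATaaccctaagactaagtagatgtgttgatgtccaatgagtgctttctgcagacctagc
Gcg: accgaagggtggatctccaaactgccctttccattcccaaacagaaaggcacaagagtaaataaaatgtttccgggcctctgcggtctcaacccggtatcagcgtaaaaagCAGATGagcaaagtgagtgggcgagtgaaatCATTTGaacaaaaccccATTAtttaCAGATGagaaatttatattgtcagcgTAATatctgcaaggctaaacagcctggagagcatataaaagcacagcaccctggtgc
Ppy: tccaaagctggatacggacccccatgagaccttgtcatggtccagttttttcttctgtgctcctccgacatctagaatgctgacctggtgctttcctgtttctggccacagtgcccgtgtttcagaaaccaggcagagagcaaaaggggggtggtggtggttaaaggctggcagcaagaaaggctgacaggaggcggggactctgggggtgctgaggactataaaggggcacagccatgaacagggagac
Ghrl: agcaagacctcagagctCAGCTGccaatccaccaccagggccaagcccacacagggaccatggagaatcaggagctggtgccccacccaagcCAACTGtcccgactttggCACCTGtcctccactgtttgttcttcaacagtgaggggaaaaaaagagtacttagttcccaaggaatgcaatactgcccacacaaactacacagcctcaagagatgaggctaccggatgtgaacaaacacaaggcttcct
The Ins1 window held 2 CANNTG and 3 TAAT motifs, and the Gcg window 3 and 2. The Ghrl window held 3 CANNTG and 0 TAAT, and the Ppy window had none of the 3 motifs. Of all 32851 windows of this length in the table, 66.2% held CANNTG, 54.9% held TAAT and 1.55% held TGACGTCA, so the first 2 motifs are common in any window. Among the members with a window, TGACGTCA was found only in that of Sst, 48 bases before the start site.

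After filtering, 1113 of 1621 EL1 barcodes and 905 of 1488 WTg barcodes remained, with 37961287 and 33007683 UMIs and a median of 26543 and 34836 UMIs per cell. The libraries shared 15 barcodes in all and 0 among those kept. Levels are given as CPM, the UMIs of a gene in 1000000 UMIs of the same cells, and Mettl3 stood at 15.1 CPM in EL1 against 66.7 CPM in WTg. Leiden clustering without the 9 genes gave 19 clusters, many of them nearly all from 1 library, and 11 could be named from marker genes. Clusters other than the immune-like and erythroid-like ones and cluster 14, which had endothelial and fibroblast markers, were taken as tumour cells. No tumour marker was required for this. The labels give the cells as epithelial, and the acinar gene Prss2 was counted in 1096 EL1 and 880 WTg cells, while 50 and 67 cells were immune-like. These immune-like cells held 260 and 153 Prss2 UMIs, so a Prss2 UMI alone does not mark a cell as acinar. Intervals are 95% intervals that cover counting error only. For 0 UMIs the interval ends at 0.0972 CPM over all EL1 cells and at 0.112 CPM over all WTg cells. In a ratio, 0 UMIs were replaced by 3 counts, which are 0.0790 and 0.0909 CPM.

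The members fell into 3 levels. Ins1, Ins2, Gcg, Sst and Iapp together had 6 UMIs in 6 of 2018 cells. Ppy, Ghrl and Pyy were found at 0 to 101 UMIs per library. Ttr was found in most cells of both libraries and made up 99.7% of the members' UMIs in EL1 and 99.4% in WTg. Since 3′ libraries record the end of a transcript, these counts are not scaled by transcript length. In bulk sums over cells, fewer cells with a transcript and less of it per cell cannot be told apart, so both sums and cells are given.

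**Figure D1:**
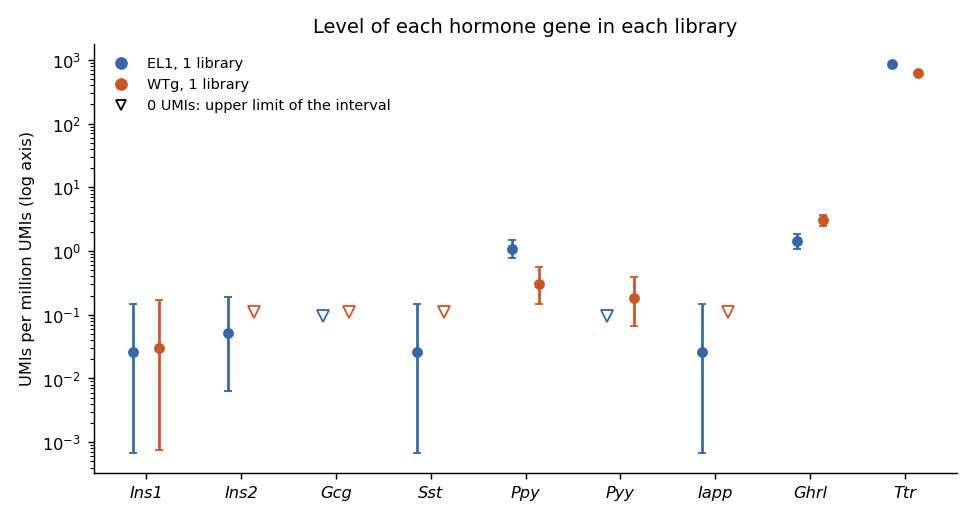
CPM (log axis) of each of the 9 hormone genes in EL1 (blue) and WTg (orange), 1 library each; bars are exact Poisson 95% intervals and open triangles are the upper limit where no UMI was counted. Ttr stood at 869.6 and 618 CPM, Ghrl and Ppy between 0.303 and 3.06 CPM, and the other 6 genes below 0.2 CPM.

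Only 3 members, Ppy, Ghrl and Ttr, reached 10 UMIs over both libraries and could be read against all genes. Of the 16167 genes that did, 10.1% were at least 1 higher on the log2 scale in WTg and 6.90% at least 1 lower, with a median log2 ratio of -0.14. Ghrl lay in the first group, Ppy in the second and Ttr in neither.

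The beta cell hormones were close to absent. Ins1, on chromosome 19 (52264297 to 52265476), had 1 UMI in EL1 and 1 in WTg. Ins2, on chromosome 7 (142678656 to 142743381), had 2 UMIs in 2 EL1 cells and 0 in WTg. Iapp, which encodes amylin and lies wholly within Slco1a5 on the opposite strand of chromosome 6 (142298423 to 142303961), had 1 UMI in EL1 and 0 in WTg. No ratio was formed, because both libraries were at or under 3 counts. The upper limits of the levels were 0.147 and 0.169 CPM for Ins1, 0.190 and 0.112 CPM for Ins2 and 0.147 and 0.112 CPM for Iapp, in EL1 and WTg. No cell among the 2018 had more than 1 UMI of any of these genes, and 0 of 905 WTg cells with an Ins2 UMI allows a share of up to 0.407% of cells with a UMI, which is not a limit on cells that express the gene.

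The cells behind these UMIs were not of a single kind. The EL1 cell with Ins1 had 29986 UMIs, 26 of them Ttr and 1 of Chga, the gene of the granule protein chromogranin A. The WTg cell with Ins1 was in the acinar-like cluster 2 and had 158835 UMIs, of which 148 were Ttr and 158 Chga. The Iapp cell was among the deepest of EL1 with 178178 UMIs. Of the Ins2 cells, 1 was in the macrophage-like cluster 12 and the other in cluster 3, a cluster of low depth led by Gm26917, Kcnq1ot1 and Malat1, with 1487 UMIs in that cell. Barcodes removed by the filter held 1 more Ins2 UMI, in EL1, and no Ins1 or Iapp UMI.

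Genes that mark beta cells were near 0 as well. Of 7 beta markers, 6 had a row under that symbol, and Ucn3, the gene of urocortin 3, and G6pc2, a glucose-6-phosphatase subunit of islets, had 0 UMIs in both libraries. Slc30a8, the granule zinc transporter, had 1 and 3 UMIs, Slc2a2, the glucose transporter GLUT2, 1 and 3, and Nkx6-1, a beta cell homeodomain factor, 1 and 0. Mafa, an activator of insulin genes, was counted in 22 EL1 cells (26 UMIs) and 24 WTg cells (27 UMIs), and the 6 markers summed to 0.764 and 0.9998 CPM. Other genes of the glucose-sensing list were present. Kcnj11 and Abcc8, which encode the channel and regulatory subunits of the ATP-sensitive potassium channel, stood at 8.01 and 6.30 CPM in EL1 and at 2.73 and 3.51 CPM in WTg. In this list 3 genes had 10 or more UMIs. Of these, 1 (Kcnj11, log2 ratio of -1.55 with an interval of -1.91 to -1.21) was at least 1 lower in WTg and 0 were at least 1 higher. Over all genes the shares were 6.90% and 10.1%.

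Pdx1, the pancreatic homeodomain factor that acts on insulin genes in beta cells, was widely found. It stood at 30.7 CPM in 500 EL1 cells and at 18.7 CPM in 294 WTg cells. Insm1, a zinc-finger factor of endocrine cells, was at 41.8 and 17.6 CPM, and its log2 ratio was -1.25 (-1.39 to -1.11). Of 18 islet transcription factors, 10 had 10 or more UMIs, and of these 0 were at least 1 higher in WTg and 2, Insm1 and Hhex, at least 1 lower. Over all genes the shares were 10.1% and 6.90%. Of the other factors, Myt1, Nkx2-2 and Rfx6 were counted in 131, 86 and 64 EL1 cells and in 100, 50 and 90 WTg cells. Some factors of the list were at or near 0. Neurog3, Pax4 and Irx2 had 0 UMIs, and Nkx6-1, Pax6, Irx1 and Fev had at most 2 in a library. Neurod1, which acts on insulin genes with Pdx1, was counted in 29 EL1 cells (53 UMIs) and 31 WTg cells (75 UMIs).

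**Figure D2:**
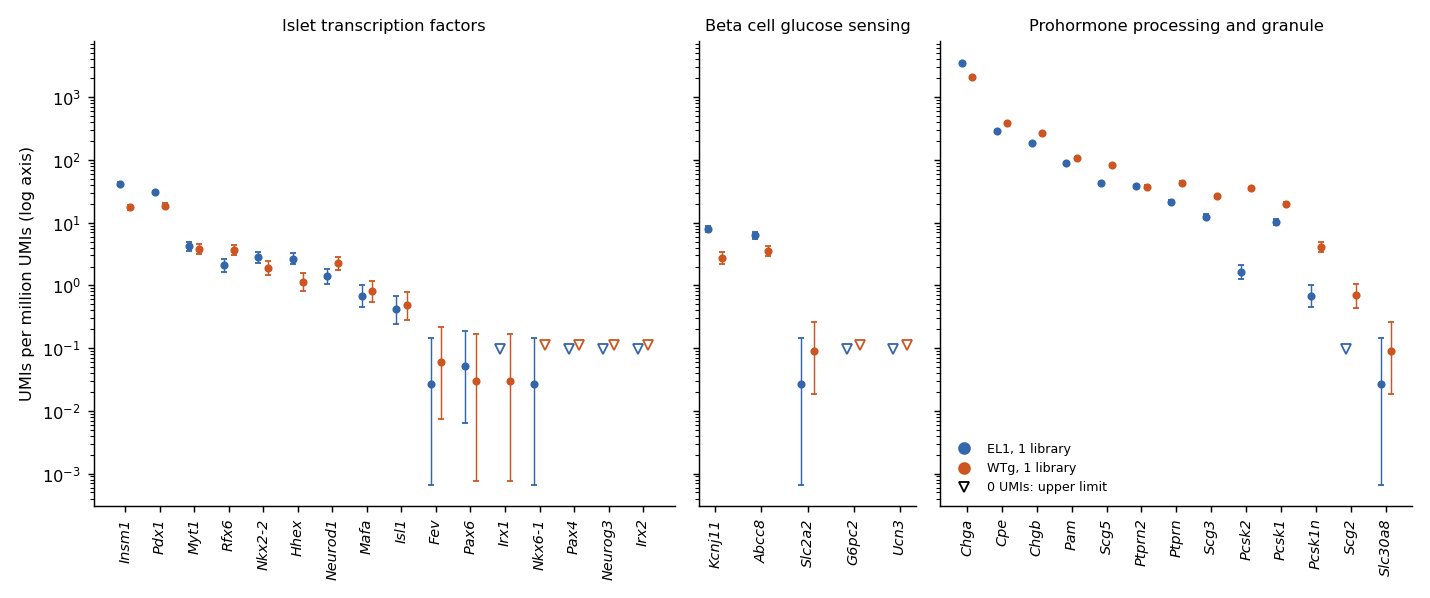
CPM (log axis) of 16 islet transcription factors, 5 beta cell glucose-sensing genes and 13 prohormone processing and granule genes in EL1 (blue) and WTg (orange), 1 library each; bars are exact Poisson 95% intervals and open triangles upper limits where no UMI was counted. Pdx1, Insm1 and most granule genes lay above 10 CPM in both or 1 of the libraries, while Neurog3, Pax4, Irx2, G6pc2 and Ucn3 had no UMI.

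Glucagon transcripts were not detected. Gcg, on chromosome 2 (62474530 to 62483650), had 0 UMIs in 1113 EL1 cells and 0 in 905 WTg cells, which allows a level of up to 0.0972 and 0.112 CPM and a share of cells with a UMI of up to 0.331% and 0.407%. The removed barcodes held none either. Of the alpha markers, Gc, the vitamin D-binding protein gene, was abundant, at 347 and 505 CPM in 901 EL1 and 727 WTg cells. It stood at 373 and 777 CPM in neuroendocrine-like cells and at 341 and 467 CPM in the other cells. Etv1, also on the alpha list, had 43 and 66 UMIs. Its level was 2.90 and 9.87 CPM in neuroendocrine-like cells against 0.666 and 0.929 CPM in the others. Irx2, a homeodomain factor of alpha cells, had 0 UMIs in both libraries, and Irx1 had 0 and 1.

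Sst, the somatostatin gene on chromosome 16 (23889573 to 23890958), had 1 UMI in EL1 and 0 in WTg. The cell was in the erythroid-like cluster 16 and had 5791 UMIs, of which 6 were Ttr and 10 Chga. A further Sst UMI was in a removed WTg barcode. Of the delta markers, Rbp4, the plasma retinol-binding protein gene, was found in 444 EL1 cells (33.4 CPM) and 403 WTg cells (42.4 CPM). Ghsr, the ghrelin receptor gene, had 6 and 8 UMIs, and Hhex, a factor of delta cells that other cells also express, had 101 and 38 UMIs, for which the log2 ratio was -1.21 (-1.79 to -0.66).

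Pancreatic polypeptide transcripts were found in a small share of cells, at 1 to 3 UMIs each, and their sum over all cells was higher in EL1. Ppy, on chromosome 11 (102099930 to 102101319), had 41 UMIs in 33 of 1113 EL1 cells (1.08 CPM, interval 0.775 to 1.47). In WTg it had 10 UMIs in 9 of 905 cells (0.303 CPM, 0.145 to 0.557). Ratios are given as log2 of WTg over EL1 throughout, and that of Ppy was -1.83 (-3.00 to -0.81), an interval of counting error wholly below 0. Of the EL1 cells, 26 had 1 UMI, 6 had 2 and 1 had 3, and of the WTg cells 8 had 1 UMI and 1 had 2. Cells with Ppy were deeper than the rest, with a median of 41085 against 26383 UMIs in EL1 and 55646 against 34705.5 in WTg. After every cell was thinned to 2000 UMIs, 2 of 1051 EL1 cells (0.190%) and 1 of 836 WTg cells (0.120%) kept a Ppy UMI, which is too few to order the libraries.

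Most Ppy UMIs of EL1, and 5 of 10 in WTg, lay in neuroendocrine-like cells. Cluster 1, with 241 EL1 and 3 WTg cells, was named from Chga, Chgb, Scg5 and Syp, and held 33 of the 41 Ppy UMIs of EL1 in 26 of its cells (4.47 CPM, 3.08 to 6.28). Cluster 8, with 113 EL1 cells and led by histone and mitotic genes, held a further 6 UMIs (0.892 CPM). In WTg, 5 UMIs were in the neuroendocrine-like cluster 6 (108 cells, 1.31 CPM) and 4 in cluster 10 (81 cells, also led by histone and mitotic genes). Of the remaining Ppy UMIs, 1 each was in clusters 0 and 5 of EL1 and 1 in cluster 4 of WTg. Acinar-like and gastric-like cells held 0 Ppy UMIs, with an upper limit of 0.256 CPM in the 358 acinar-like WTg cells and 7.32 CPM in the 34 of EL1. Immune-like cells held 0 in 50 EL1 and 67 WTg cells, with upper limits of 6.14 and 3.32 CPM. The EL1 limits for acinar-like and immune-like cells lie above the level of cluster 1, so these zeros do not set them apart from it. Likewise the WTg limit for immune-like cells lies above the 1.31 CPM of cluster 6. Every cell with Ppy, 33 in EL1 and 9 in WTg, also had Ttr and Chga. Of all cells, 86.4% in EL1 and 80.9% in WTg had Ttr, and 83.0% and 74.5% had Chga. Since cells with Ppy were deeper, this overlap does not mark them out. Within the neuroendocrine-like class the log2 ratio was -1.72 (-3.43 to -0.35), with cluster 1 holding most of that class in EL1 and cluster 6 in WTg. The 20 EL1 cells of cluster 6 had 0 Ppy UMIs, with an upper limit of 6.64 CPM, above the 1.31 CPM of its WTg cells. In the unnamed tumour clusters Ppy stood at 0.327 CPM in EL1 and 0.383 CPM in WTg (log2 ratio of 0.23, -1.73 to 2.02). That interval, from 8 and 5 UMIs, includes the -1.72 of the neuroendocrine-like class, so the classes were not told apart. Different clusters also made up the unnamed group in EL1 and in WTg.

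Pyy, which lies 5357 bases from Ppy on chromosome 11 (102106676 to 102107832), came from a single cell. It had 0 UMIs in EL1 and 6 in WTg, all in 1 cell of cluster 10. That cell had 27732 UMIs, 69 of Ttr, 316 of Chga, 1 of Ghrl and 0 of Ppy. Against 3 counts in EL1 the log2 ratio of Pyy was at least 1.202, or at least 0.44 with the counting error of its 6 UMIs, and this bound rests on that cell alone.

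Ghrelin had the most UMIs of the hormones themselves, and its sum over all cells was higher in WTg. In EL1 it was counted in 31 cells against 33 for Ppy, so the order of these 2 genes holds for UMIs and not for cells. Ghrl, on the minus strand of chromosome 6 (113716119 to 113719880) where it overlaps Gm44033 and Gm26982 on the opposite strand, was counted in 31 of 1113 EL1 cells, with 55 UMIs (1.45 CPM, 1.09 to 1.89). In WTg it was counted in 44 of 905 cells, with 101 UMIs (3.06 CPM, 2.49 to 3.72). The log2 ratio was 1.08 (0.59 to 1.58). Within neuroendocrine-like cells it was 0.91 (0.11 to 1.70), with cluster 1 holding most of them in EL1 and cluster 6 in WTg. In cluster 6, the neuroendocrine-like cluster with at least 20 cells of both libraries, Ghrl stood at 7.20 CPM in EL1 (4 UMIs, all in 1 cell) and at 7.32 CPM in WTg (28 UMIs), a difference not detectable at this depth (log2 ratio of 0.02, -1.49 to 2.00). In the unnamed tumour clusters, which were different ones in the 2 libraries, it was 2.30 (1.60 to 3.04). The number of cells with 3 or more Ghrl UMIs was 5 in EL1 and 12 in WTg, and they held 23 of 55 and 64 of 101 UMIs. The richest cells had 6 and 5 UMIs in EL1 and 13 and 9 in WTg, so the upper end was higher in WTg while most cells of both libraries had 1 UMI (20 of 31 and 27 of 44). Cells with Ghrl were deeper than the rest, at a median of 47161 against 26257.5 UMIs in EL1 and 42758 against 33842 in WTg. Thinned to 2000 UMIs, 1 of 1051 EL1 cells (0.0951%) and 3 of 836 WTg cells (0.359%) kept a Ghrl UMI, with intervals that overlap. In immune-like cells, which should lack ghrelin, 0 of 50 EL1 and 1 of 67 WTg cells had a Ghrl UMI (1.49%), at median depths of 6881.5 and 8161 UMIs, against 2.79% and 4.86% of all cells.

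Ghrl UMIs lay in 6 clusters of EL1 and 10 of WTg and Ppy UMIs in 4 and 3, and since Ghrl had more UMIs the spread of the genes was not compared. In EL1, 30 of 55 UMIs were in neuroendocrine-like cells (3.78 CPM, 2.55 to 5.397) and 18 in cluster 8 (2.68 CPM). In WTg, 28 of 101 were in neuroendocrine-like cells (7.09 CPM, 4.71 to 10.2), 32 in cluster 10 (6.60 CPM) and 26 in cluster 4 (3.98 CPM), whose leading genes include Prss1, Clvs1 and Snap25. The EL1 clusters 0 and 5 held 4 and 0 Ghrl UMIs in 296 and 133 cells, and the WTg acinar-like clusters 2 and 7 held 3 and 0 in 187 and 111 cells. The upper limits for clusters 5 and 7 were 0.889 and 0.844 CPM, below the intervals of cluster 1 and cluster 8 in EL1 and of clusters 4, 6 and 10 in WTg. The shallow acinar-like cluster 9 held 5 Ghrl UMIs in 2 of 60 WTg cells (14.1 CPM, 4.59 to 33.0), 4 of them in a cell of only 1818 UMIs. Chga was found in 30 of 31 EL1 and 41 of 44 WTg cells with Ghrl, and Ttr in 29 and 41. Among all cells, which were less deep, 83.0% and 74.5% had Chga and 86.4% and 80.9% had Ttr. Ghrl and Ppy were in the same cell in 3 cells of each library. The richest WTg cell, with 13 Ghrl UMIs, had 39410 UMIs, 92 of Ttr and 326 of Chga but only 6 of the trypsinogen gene Prss2.

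**Figure D3:**
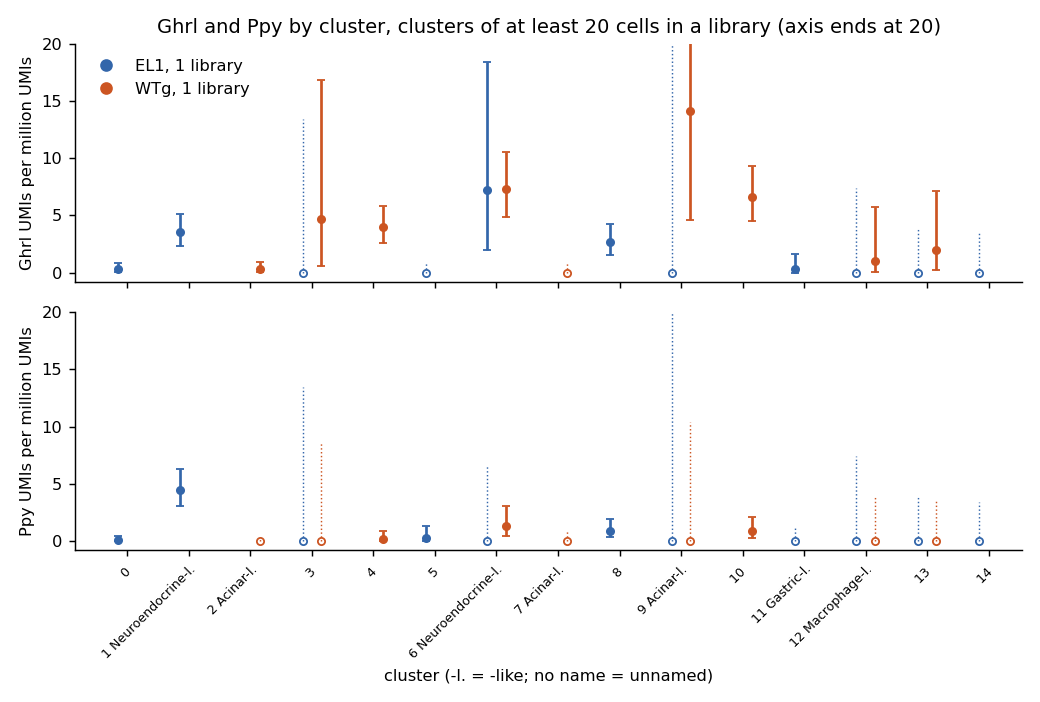
CPM of Ghrl (upper panel) and Ppy (lower panel) in each cluster with at least 20 cells of a library, EL1 in blue and WTg in orange, 1 library each; bars are exact Poisson 95% intervals, open circles mark 0 UMIs with a dotted line to the upper limit, and the axis ends at 20. Ppy stood at 4.47 CPM in cluster 1 of EL1 and at most at 1.31 CPM elsewhere. Ghrl stood between 2.68 and 7.32 CPM in clusters 1, 4, 6, 8 and 10 and at 14.1 CPM, with a wide interval, in cluster 9 of WTg. In WTg clusters 3, 13 and 12 it stood at 4.67, 1.97 and 1.03 CPM, from only 2, 2 and 1 UMIs.

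Genes that act on ghrelin were examined in a short list added after the Ghrl values had been seen. Mboat4, the acyltransferase that makes ghrelin active, had 5 UMIs in EL1 and 7 in WTg, and Pcsk1, the convertase that cuts proghrelin, stood at 10.3 and 19.7 CPM (log2 ratio of 0.93, 0.75 to 1.12). Adrb1, the adrenergic receptor that stimulates ghrelin release, stood at 11.9 and 6.51 CPM. Of these 3 genes, 0 were at least 1 higher or lower, against 10.1% and 6.90% of all genes. In the 12 WTg cells with 3 or more Ghrl UMIs the genes most raised over other WTg cells were Serpina1b, Serpina1a, Serpina1d, Serpina1c and Slc18a2, the vesicular monoamine transporter gene. Slc18a2 stood at 146 CPM in them against 16.7 CPM in the other cells. All 5 were also among the 10 leading genes of the neuroendocrine-like cluster 6, which held 4 of the 12 cells. In the 5 EL1 cells they were Egr4, 2210010C04Rik, Serpina1d, Serpina1b and Dbpht2. The choice of 3 UMIs was made after the values had been seen, and the 5 Serpina1 genes are near-identical copies whose counts may be split by the counting.

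Transthyretin was the exception among the members. Ttr, on chromosome 18 (20665280 to 20674321), had 33012 UMIs in 962 of 1113 EL1 cells (869.6 CPM, 860.3 to 879). In WTg it had 20413 UMIs in 732 of 905 cells (618 CPM, 610.0 to 627), and it ranked 151st and 190th among all genes by summed UMIs. The log2 ratio was -0.49 (-0.52 to -0.47), which is within 1 of no change. The lower level in WTg was 1.41-fold, and counting error is small against it, but the spread between animals is unknown. Over cells, Ttr ran in EL1 from 0 UMIs at the 10th percentile to a median of 19, 70 at the 90th percentile and 319 at most. In WTg the same points were 0, 12, 55.6 and 246. Per 10000 UMIs of the cell the medians were 7.29 and 3.74, a wider gap than that of the sums. The quartiles were 2.80 and 12.3 in EL1 and 0.801 and 7.94 in WTg, so these middle ranges overlapped. Cells with 10 or more Ttr UMIs numbered 717 in EL1 and 495 in WTg. The tenth of cells with the most Ttr held 37.2% of its UMIs in EL1 and 44.8% in WTg. At a depth of 2000 UMIs, a Ttr UMI was kept by 65.1% of 1051 cells in EL1 (62.1% to 68.0%) and by 53.6% of 836 in WTg (50.1% to 57.0%), against 86.4% and 80.9% without thinning.

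**Figure D4:**
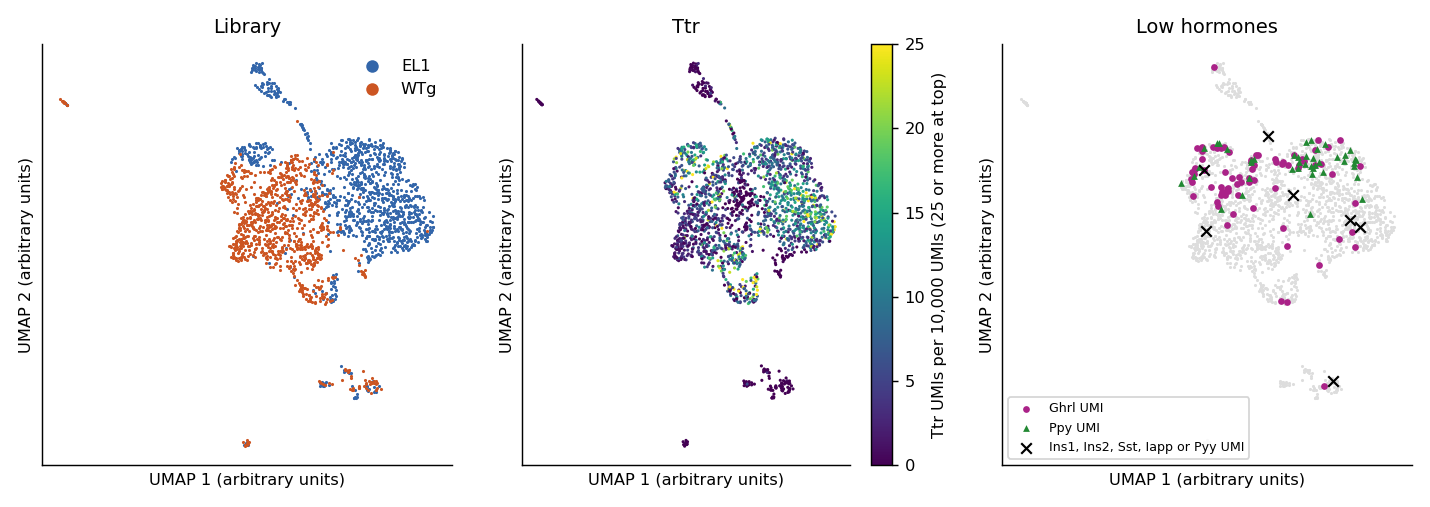
Map of the 2018 kept cells by UMAP (axes in arbitrary units), coloured by library (left), by Ttr UMIs per 10000 UMIs of the cell (middle) and marked where a UMI of Ghrl (circles), Ppy (triangles) or of Ins1, Ins2, Sst, Iapp or Pyy (crosses) was counted (right); 1 library per group. EL1 and WTg tumour cells lie apart, Ttr is spread over both, Ghrl and Ppy lie mostly in the upper part of the main mass, and the 7 crosses do not form a group.

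Ttr was found in every cluster taken as tumour cells and was low in immune-like cells. Among clusters with at least 20 cells of a library it ran from 14.05 CPM in the macrophage-like cluster 12 to 1331 CPM in cluster 5 in EL1, and from 4.12 CPM in cluster 12 to 1038 CPM in the acinar-like cluster 7 in WTg. Cluster 5 was led by Fst, Smarca1 and Ctla2a, and Chga and Insm1 were raised in it, and all of its 133 EL1 cells had Ttr. Both clusters at the top for Ttr, 5 in EL1 and 7 in WTg, had 0 Ghrl UMIs, as had several smaller clusters. The gastric-like cluster 11, 77 EL1 cells with the proton pump genes Atp4a and Atp4b, was lower at 95.3 CPM (85.1 to 106). All immune-like cells together stood at 13.3 CPM in EL1 (8 UMIs in 3 of 50 cells) and 5.401 CPM in WTg (6 UMIs in 6 of 67 cells). At 2000 UMIs, 2 of 47 immune-like EL1 cells (4.26%) and 0 of 60 in WTg (upper limit 5.96%) had a Ttr UMI.

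**Figure D5:**
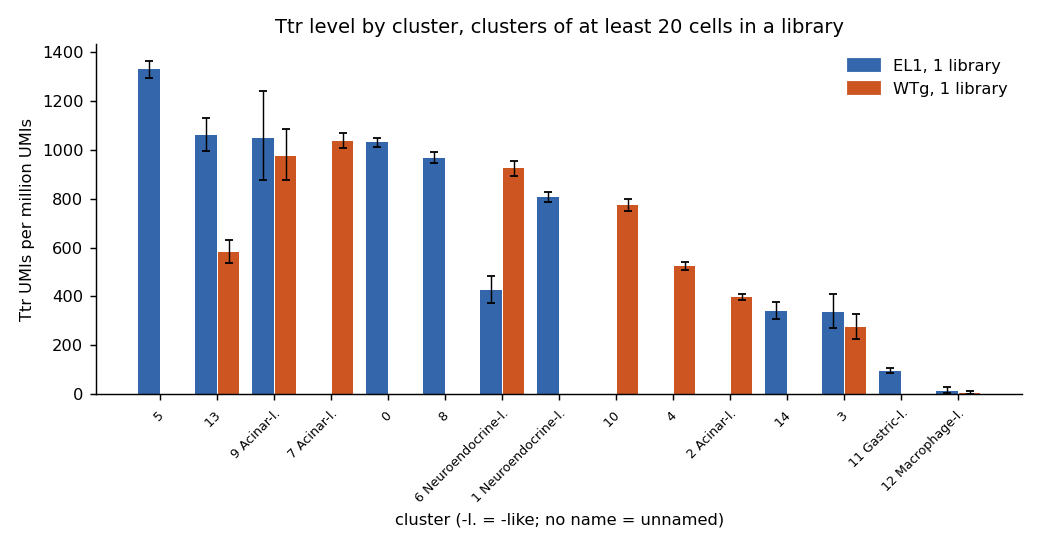
CPM of Ttr in each cluster with at least 20 cells of a library, ordered by the higher of the values, EL1 in blue and WTg in orange, 1 library each; bars start at 0 and error bars are exact Poisson 95% intervals. Levels run from 1331 CPM in cluster 5 to 14.05 and 4.12 CPM in the macrophage-like cluster 12, and WTg is lower than EL1 in cluster 13 but higher in cluster 6.

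The direction of the Ttr difference was not shared by all kinds of cell. In neuroendocrine-like cells Ttr stood at 781 and 908 CPM, EL1 first (log2 ratio of 0.22, 0.16 to 0.28), though at a clustering resolution of 2 in place of 1 the order turned, to 836 and 750.3 CPM. In cluster 6, which had 20 EL1 and 108 WTg cells, the values were 427 and 925 CPM (log2 ratio of 1.12, 0.93 to 1.31). In cluster 13, with 32 and 30 cells and led by early response genes such as Fos and Klf2, they were 1062 and 582 CPM (-0.87, -1.02 to -0.72). In acinar-like cells Ttr stood at 502 and 607 CPM (0.27, 0.09 to 0.46), with clusters 2 and 7 holding most of them in WTg. In EL1, cluster 9 held 26 of the 34 cells but 128843 of their 504136 UMIs, and stood at 1048 CPM. The 5 EL1 cells of cluster 2 and the 3 of cluster 7 stood at 253 and 396 CPM. The EL1 value of the class thus rests largely on these few deep cells. In the low-depth clusters 3 and 9 the intervals of the log2 ratio included 0 (-0.29, -0.70 to 0.12, and -0.10, -0.39 to 0.20). The unnamed tumour clusters, summed, stood at 1057 and 617 CPM, and different clusters made up that group in the 2 libraries.

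Some cells that were not taken as tumour cells carried Ttr in EL1. The 18 erythroid-like EL1 barcodes, with a median of 1828.5 UMIs, had 38 Ttr UMIs (961 CPM, 680 to 1319), close to the level of the whole library, and 564 UMIs of the acinar gene Prss2. Cluster 14, which had equal numbers of endothelial and fibroblast markers raised and so was left unnamed, had 364 Ttr UMIs in 18 of 32 EL1 cells (339.7 CPM) and 1 UMI in 13 WTg cells (2.35 CPM). Beside 1000 UMIs of Prss2 there were 67.4 UMIs of Ttr in the erythroid-like and 33.0 in the cluster 14 cells of EL1, against 42.9 in its unnamed tumour clusters, 73.1 in neuroendocrine-like, 19.0 in acinar-like and 30.8 in immune-like cells. The part of free RNA or of mixed droplets in these values was not tested. Without the immune-like, erythroid-like and cluster 14 cells, the log2 ratio of Ttr over the libraries was -0.47. The removed barcodes held Ttr at 288 and 187 CPM.

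The genes whose levels per cell were most like Ttr were named by Pearson correlation of log-scaled values per 10000 UMIs, over genes found in at least 50 cells, as a description only. In EL1 they were Gc (r of 0.63), Cpb1, a carboxypeptidase gene of acinar cells (0.63), and Pdia2, a protein disulfide isomerase gene of the pancreas (0.62), over 1113 cells. In WTg they were Vtn, the vitronectin gene (0.58), Clps, the gene of the lipase cofactor colipase (0.56), and Gc (0.55), over 905 cells. Without immune-like, erythroid-like and cluster 14 cells the 3 genes were the same in EL1 (0.58 to 0.52) but were Chchd2, Cox5b and Ppia in WTg (0.52 to 0.47). All cells of a library share its depth and free RNA, and Ttr per 10000 UMIs itself rose with log UMIs of the cell (r of 0.27 and 0.32).

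Most genes that act in cutting and storing prohormones were present. Chga stood at 3560 CPM in 924 EL1 cells and at 2134 CPM in 674 WTg cells, and Cpe, the carboxypeptidase that trims prohormones, at 291 and 385 CPM. Chgb, a second chromogranin gene, stood at 189 and 267 CPM, and Pam, the enzyme that amidates peptides, at 89.99 and 108 CPM. Of 13 genes in this list, 12 had 10 or more UMIs. Of these, 0 were at least 1 lower in WTg and 5 at least 1 higher, against 6.90% and 10.1% of all genes. The median log2 ratio was 0.96 against -0.14 over all genes. The 5 were Pcsk2, Pcsk1n, Scg2, Scg3 and Ptprn. Pcsk2, the convertase that makes glucagon and that acts on insulin and somatostatin, stood at 1.63 CPM in 25 EL1 cells and at 35.1 CPM in 186 WTg cells, which gave a log2 ratio of 4.43 (4.06 to 4.82). In neuroendocrine-like cells it was at 4.79 and 173 CPM, with cluster 1 holding most of these cells in EL1 and cluster 6 in WTg.

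Receptors of the hormones were mostly low. Of 20 genes in the list, 4 were found in at least 10% of the cells of each library. Insr, the insulin receptor gene, stood at 38.5 CPM in 639 EL1 cells and 39.4 CPM in 521 WTg cells. Igf1r, which binds insulin weakly, stood at 6.59 and 9.15 CPM. Sstr2, a somatostatin receptor gene, stood at 16.3 and 16.5 CPM (log2 ratio of 0.02, -0.15 to 0.19), and in neuroendocrine-like cells at 25.8 and 61.3 CPM. Ramp1, the most abundant at 172 and 118 CPM, encodes a partner of the calcitonin receptor in amylin receptors, and Calcr itself had 0 UMIs in both libraries. Of 12 receptor genes with 10 or more UMIs, 2 (Ramp2 and Ramp3) were at least 1 higher in WTg and 1 (Glp1r, the GLP-1 receptor gene, with 32 and 4 UMIs) at least 1 lower. Among all genes the shares were 10.1% and 6.90%, and with so few receptor genes these counts were not read as a result about receptors. Gcgr, the glucagon receptor gene, had 3 and 5 UMIs, and Npy4r, the pancreatic polypeptide receptor gene, 2 and 0.

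Ttr was accompanied by other genes of plasma and carrier proteins. Of 15 such genes, 13 had 10 or more UMIs. Of these, 6 were at least 1 higher in WTg and 2 at least 1 lower, against 10.1% and 6.90% of all genes. The median log2 ratio was 0.59, while Ttr itself was at -0.49. Ambp, the precursor gene of alpha-1-microglobulin, stood at 197 and 464 CPM (log2 ratio of 1.23). Serpina1c, an alpha-1-antitrypsin gene, stood at 69.8 and 485 CPM (2.80), and the 5 Serpina1 copies had log2 ratios of 1.52 to 3.26. Trf, the transferrin gene, stood at 41.2 and 62.0 CPM. The 2 lower genes were Alb, the albumin gene, with 147 and 30 UMIs, and Ahsg, the fetuin-A gene, with 525 and 81 UMIs, and Fgb, a fibrinogen gene, had 0.

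Peptide hormones outside the islet set were also present. Gal, the galanin gene, stood at 173 CPM in 669 EL1 cells and at 465 CPM in 616 WTg cells (log2 ratio of 1.43, 1.39 to 1.47), and in WTg it was higher outside than inside neuroendocrine-like cells (507 against 154 CPM). Penk, the proenkephalin gene, stood at 32.5 CPM in 130 EL1 cells and 14.7 CPM in 93 WTg cells (-1.14). Adm, the adrenomedullin gene, stood at 9.51 and 10.7 CPM, and Nmb, the neuromedin B gene, at 5.06 and 4.33 CPM. Of 14 genes, 8 had 10 or more UMIs. Of these, 2 (Gal and Cck) were at least 1 higher in WTg and 1 (Penk) at least 1 lower, against 10.1% and 6.90% of all genes. Gip, Nts and Vip had 0 UMIs.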

How the data were processed

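The deposited values are whole UMI counts that the authors made with Cell Ranger (version 6.0.2 in the matrix header) from 10x Chromium 3′ v3.1 libraries and did not normalise, given as a sparse matrix and a dense table per sample. The submitters' processing notes name GRCm38, R 4.1 and Seurat 4.0.5. Whether intronic reads were counted is not given in the sources used here. The 9 genes and all lists were chosen with earlier results of these data known.

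Barcodes were filtered as stated in the report, and the doublets that Scrublet called (2 in EL1, 3 in WTg) were kept. Clustering used scanpy 1.11.5 and leidenalg 0.10.2 with 2000 variable genes, 30 components, 15 neighbours and resolution 1, without the 9 genes. A cluster was named "-like" from at least 3 markers raised by a log2 fold of 1 or more in at least 10% of its cells, more than for any other class. CPM were summed UMIs per 1000000, with exact Poisson intervals, conditional binomial intervals for ratios and Clopper-Pearson intervals for shares (95%). Where a library had 0 UMIs, 3 counts took its place in a ratio. Thinning to 2000 UMIs left out 62 EL1 and 69 WTg cells. The scripts were tested on simulated data. Positions are from GENCODE M21 on GRCm38, which held 32235 of the 32285 gene identifiers. Named genes are the 9 members, at most 4 genes per list with the highest CPM over both libraries, and the 3 genes most like a member found in at least 100 cells. Other genes were named after their values had been seen. TMM factors came from edgeR 4.0.16 in R 4.3.3. Some genes of the lists are counted in the list totals but are not reported here by name.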

Additional observations from a re-analysis of the deposited data

How the results depend on the processing

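No paired analysis was possible because EL1 and WTg are represented by 1 library apiece. Of 109 recomputed values 27 moved, and the recomputed log2 ratios over the whole libraries kept their sign. The log2 ratio of Ghrl was 2.13 with each cell weighted equally, where 1 WTg cell of 1818 UMIs held 4 Ghrl UMIs, and 0.76 with equal weights over cells of at least 5000 UMIs, an alternative added after seeing the data. It was 1.68 when Ghrl UMIs were counted only in cells with at least 3 of them, still against all UMIs of each library. The ratio of Ppy had no value in that setting, nor that of Pyy with equal weights or without the richest cell. The ratio of Ttr was -0.52 under the stricter filter (1000 genes, 2000 UMIs, 10% mitochondrial) and -0.38 with TMM factors. With each cell weighted equally the ratio of Ppy was -2.53 against -1.83, which is inside its interval. The other ratios stayed inside their intervals under all deposited barcodes, the dense table and doublet removal.

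The shares of cells with a UMI depended on the depth to which cells were thinned. The EL1 and WTg shares with Ttr were 48.3% and 33.5% at 1000 UMIs, 86.4% and 80.9% without thinning, and 60.2% and 43.2% over all barcodes, and the WTg share was 49.7% under the stricter filter. For Ghrl the shares were 2.79% and 4.86% without thinning, 0.0951% and 0.359% at 2000 UMIs and 0.270% and 0.663% at 1000 UMIs, so with so few cells they did not fall with depth in both steps. For Ppy they were 2.96% and 0.994% without thinning and 0% in both libraries at 1000 UMIs, 0% in EL1 under the stricter filter and 0% in WTg over all barcodes. With 5 UMIs in place of 10, 2 EL1 and 5 WTg cells were rich in Ghrl and 1 WTg cell in Pyy, and with 20 UMIs 0 WTg cells were rich in Ghrl. Ttr in neuroendocrine-like cells turned its order at resolution 2, to 836 and 750.3 CPM, and in WTg 944 CPM at resolution 0.5 and 971 CPM with the 9 genes kept in the clustering. Ppy in the WTg cells of that class was 0.812 CPM at resolution 2 against 1.27 CPM. The causes were not tested beyond this. With 1 library per group the spread between animals is unknown, and a hormone under 3 counts was not detectable at this depth rather than shown to be absent.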
